A study of Mus musculus with 17 samples.

Results

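The 5 genes of the Ikaros family in the mouse, Ikzf1 (Ikaros), Ikzf2 (Helios), Ikzf3 (Aiolos), Ikzf4 (Eos) and Ikzf5 (Pegasus), were examined for the places where RUNX1 and CHD7 were called on chromatin. A gene's window was its body in the GRCm38.p6 (mm10) gene table and 50 kb on either side, and overlapping peaks from the 8 lists of 1 antibody were joined into a site. The 5 windows held 27 of 21664 RUNX1 sites and 130 of 85223 CHD7 sites. By gene, Ikzf1 to Ikzf5 in order, these were 7, 11, 3, 4 and 2 RUNX1 sites and 30, 65, 6, 21 and 8 CHD7 sites.

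The data are ChIP-seq peak lists of RUNX1, a DNA-binding regulator of blood development, and CHD7, a chromatin remodeller, in 416B cells, a line of mouse myeloid progenitors. Cells were stably transfected with a doxycycline-responsive construct carrying the Cbfb-Myh11 fusion cDNA with mCherry (CM), or with the construct lacking the fusion (Control), and all of them carried the rtTA activator and tTS silencer. Each was grown without doxycycline (-Dox) or with 1 µg/ml for 24 h (+Dox), giving the conditions Control -Dox, Control +Dox, CM -Dox and CM +Dox, each with 2 libraries per antibody. The fusion is induced in CM +Dox cells, and the other 6 libraries of an antibody are called here the libraries without induced CM. The labels describe clones grown from single sorted cells, so CM and Control cells also differ by clone, and nothing in the labels says that replicates were separate cultures. The p-values below therefore measure how far CM +Dox stands apart among these libraries, whose scatter may be technical. The other 6 libraries pool Control -Dox, Control +Dox and CM -Dox.

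RUNX1 lists held 12603 to 16163 peaks without induced CM and 8140 and 9710 in CM +Dox, and CHD7 lists held 16323 to 37698. Read depth is unknown, and peak lists hold no expression values, so the cell line could not be checked against marker genes. A +Dox tag stands in the peak names of a RUNX1 library whose label is Control -Dox, replicate 1. It was kept under its label, and the RUNX1 comparisons are also given without it.

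Ikaros proteins are zinc finger transcription factors. They bind DNA through one group of fingers, pair with each other through another, and recruit the NuRD complex and other corepressors. Ikaros and Aiolos are known for their roles in the making of lymphocytes, Helios and Eos for theirs in regulatory T cells, and Ikaros is already made in early blood progenitors. Pegasus is the most distant relative and recognises a different sequence. RUNX1 binds DNA together with CBFB, the protein whose gene is joined to Myh11 in leukaemia with an inversion of chromosome 16.

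The start regions of 3 genes are shown because each overlaps a RUNX1 site of the family, the first only in part. The last 2 of these sites stayed called in CM +Dox, where others away from listed starts were lost. Each region shown is the stretch before a RefSeq transcription start on GRCm38.p6, 5′ to 3′ on the gene's strand. Capitals mark the bases that lie inside every RUNX1 peak called at the site. The first lies before the second Ikzf1 start (chr11:11689927-11690176, plus strand), in a wide merged CHD7 site called in all 8 libraries and in a RUNX1 site called in 2. The next joins the starts of Ikzf5 and Acadsb (chr7:131410479-131410600, minus strand), where RUNX1 was called in all 8 libraries. The last lies before Fignl1, the neighbour of Ikzf1 (chr11:11808963-11809212, minus strand), under the RUNX1 site of the Ikzf1 window that both CM +Dox libraries kept.
Ikzf1 second start: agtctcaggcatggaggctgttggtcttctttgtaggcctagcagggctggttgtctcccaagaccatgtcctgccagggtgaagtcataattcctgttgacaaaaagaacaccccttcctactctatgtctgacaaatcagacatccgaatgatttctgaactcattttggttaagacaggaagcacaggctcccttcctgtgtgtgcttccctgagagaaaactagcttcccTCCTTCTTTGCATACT
Ikzf5 to Acadsb: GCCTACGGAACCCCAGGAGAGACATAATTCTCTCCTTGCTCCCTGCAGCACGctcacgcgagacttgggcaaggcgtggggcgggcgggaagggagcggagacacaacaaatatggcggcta
Fignl1 start: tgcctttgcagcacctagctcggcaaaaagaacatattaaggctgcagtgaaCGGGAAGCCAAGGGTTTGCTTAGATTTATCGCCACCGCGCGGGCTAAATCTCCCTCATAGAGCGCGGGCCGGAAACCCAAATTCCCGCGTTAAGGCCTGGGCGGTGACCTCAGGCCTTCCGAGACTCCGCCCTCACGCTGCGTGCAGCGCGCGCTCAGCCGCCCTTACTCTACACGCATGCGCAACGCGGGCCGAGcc

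Neither spelling of the RUNX core searched for, TGTGGT or TGCGGT on either strand, was found in the 300-base window around these 3 starts or the first Ikzf1 start. Of 32851 promoter windows of that length, 22.4% held one of them. The core TGGGAA, the sequence Ikaros proteins are known to bind, was also not found in the 4 windows, against 25.6% of all windows. These are matches of letters in one window and describe nothing beyond it.

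Most RUNX1 sites at Ikzf1, which encodes Ikaros, were missing from the lists of induced cells. Its window (gene at chr11:11684962-11772930) held 5 and 7 RUNX1 sites in the Control -Dox libraries, 6 and 5 in Control +Dox, 5 and 6 in CM -Dox, and 1 and 1 in CM +Dox. Both CM +Dox libraries lay below all 6 others. The means were 1.0 ± 0.0 (SD, n = 2) and 5.67 ± 0.82 (n = 6), a difference of -4.67 sites, exact permutation p = 0.0357, the smallest that 28 choices of libraries can give. Adjusted over 14876 genes by Benjamini-Hochberg, p was 0.2141. No gene passed an adjusted 0.05 in this exact test, and 2481 had an unadjusted p under 0.05. Fewer sites in both CM +Dox libraries than in all others was found at 19.6% of all genes with a RUNX1 site, and at 51.0% of the genes with 5 or more sites in each library without induced CM. Without the library whose tag and label disagree, the difference at Ikzf1 was -4.80.

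A site was called lost when all 6 libraries without induced CM and neither CM +Dox library called it. Of 5 Ikzf1 sites called in all 6, 4 were lost. Among 616 genes with at least 5 such sites, a share at least as high was found at 1.30%, a background chosen after the values were seen.

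The lost sites lay on both sides of the gene. Site 1 (chr11:11657135-11657553), 27.4 kb below the low-coordinate end of Ikzf1 and outside any protein-coding gene, was among the highest peaks of its lists. Its percentile rank by the authors' peak score (100 the highest of a list) was 93.0 and 95.4 (Control -Dox), 95.3 and 91.9 (Control +Dox), and 94.5 and 93.8 (CM -Dox). Neither CM +Dox list held it. Across the genome, 10.2% of the sites called in all 6 libraries with a mean rank of 90 or more were lost.

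Site 5 (chr11:11766116-11766565), inside the gene near its high-coordinate end, ranked 67.0 to 86.2 in the 6 libraries. Site 4 (chr11:11763359-11763741), a little before it in the gene, was a low peak with ranks of 0.68 to 30.4, so some lists called it barely above their threshold. Site 7 (chr11:11820534-11821132), 47.6 kb beyond the gene and inside Ddc, the gene for DOPA decarboxylase, ranked 73.4 to 87.7. The gene table gives no exons, so sites inside a gene are not placed in exon, intron or UTR.

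The site that remained in CM +Dox, site 6 (chr11:11808651-11809253), covers the Fignl1 start shown above; Fignl1 encodes an ATPase of DNA repair. It had ranks of 34.5 to 64.0 in the libraries without induced CM and 4.93 and 35.4 in CM +Dox. Sites 2 and 3, at the second Ikzf1 start and inside the gene, were called in 2 libraries each, at ranks of at most 23.5, and in no CM +Dox library. From 50 kb below Ikzf1 to the Fignl1 start, 35.7 kb above it, no RUNX1 peak was thus listed in CM +Dox.

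**Figure D1:**
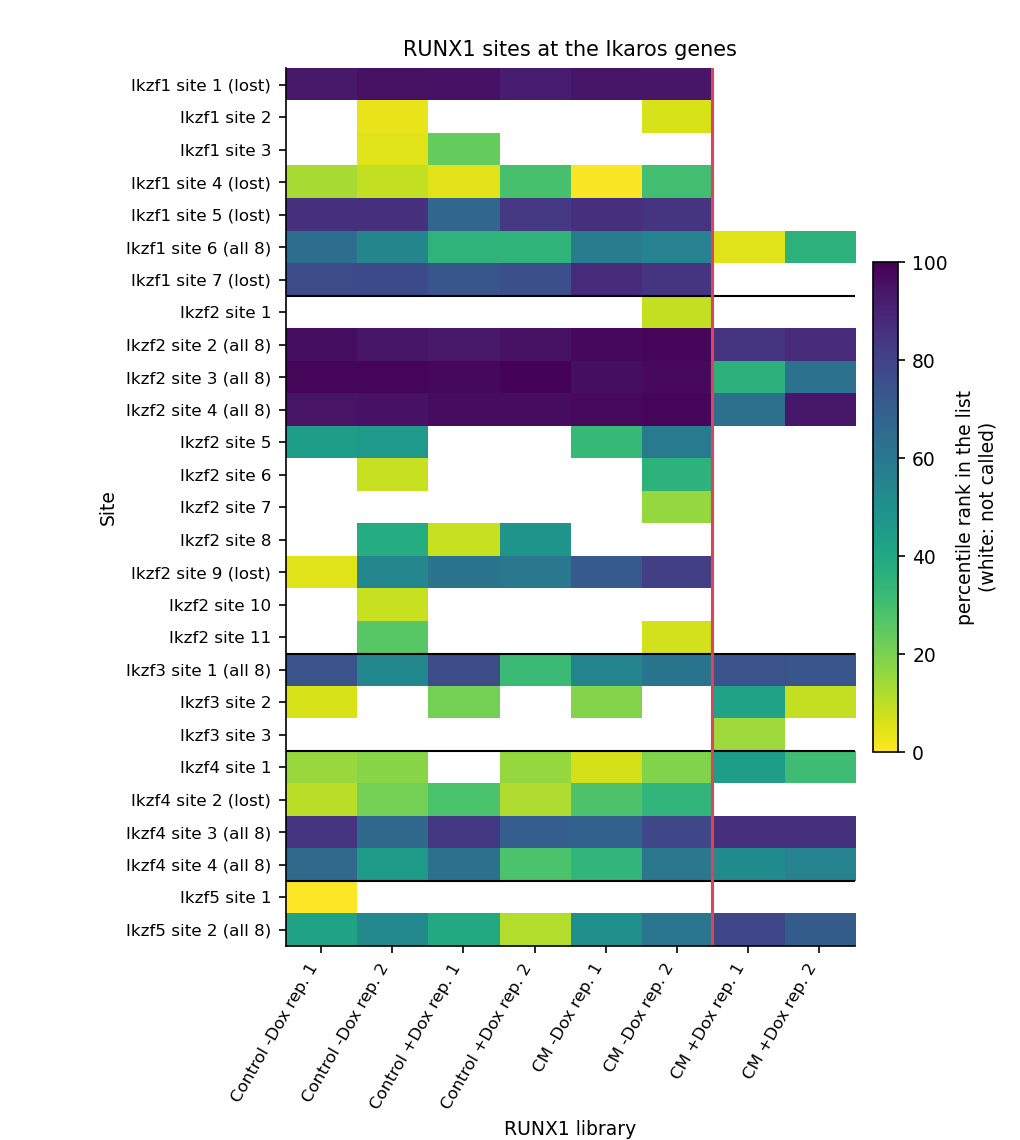
Percentile rank of the RUNX1 peak in its list (colour, 0 to 100; white, not called) for the 27 RUNX1 sites at the Ikaros genes (rows, in genome order by gene) in the 8 RUNX1 libraries (columns); the red line sets off CM +Dox. Of the 7 Ikzf1 rows, 1 is coloured in CM +Dox, whereas 3 Ikzf2 rows are coloured in all 8 columns. Of these 3, site 3 has paler cells in CM +Dox, at ranks of 35.8 and 62.6.

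At Ikzf2, which encodes Helios, the 3 highest-ranked RUNX1 sites stayed called in induced cells and those in the gene body did not. The window (gene at chr1:69531207-69687351, no other protein-coding gene in it) held 5 and 9 (Control -Dox), 5 and 5 (Control +Dox), 5 and 9 (CM -Dox), and 3 and 3 (CM +Dox) RUNX1 sites. Both CM +Dox libraries were below the 6 others, by 3.33 sites on average (3.0 ± 0.0 against 6.33 ± 2.07; exact permutation p = 0.0714, adjusted 0.336). Without the library whose tag and label disagree the difference was -3.6. The same 3 sites below the gene made up both CM +Dox counts. None of the 6 RUNX1 sites inside Ikzf2 was called in CM +Dox. Of these, site 9 (chr1:69654955-69655400), at ranks of 4.81 to 80.9, was called in all 6 other libraries and counts as lost. The rest were called in 1 to 4 of those 6 libraries, at mean ranks of 1.39 to 30.3 (0 where not called). The share of all such sites missing from both CM +Dox lists was not counted. Their absence therefore cannot be read as a trait of Ikzf2.

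The 3 sites that were kept lie in a row 34.7, 23.2 and 17.1 kb below the low-coordinate end of Ikzf2. To compare them between lists of unequal length, each was ranked among the 4833 RUNX1 sites that all 8 lists call. On this scale, site 3 (chr1:69507504-69508027) stood at 96.2 and 96.1 (Control -Dox), 94.9 and 97.5 (Control +Dox), 90.8 and 92.9 (CM -Dox), and 21.0 and 37.0 (CM +Dox). It was near the top in every library without induced CM and in the lower part in both CM +Dox libraries. The difference was -65.7 (29.0 against 94.7 ± 2.48, n = 2 and 6; exact permutation p = 0.0357, adjusted 0.09345 over 4833 sites).

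Site 2 (chr1:69496020-69496501) stood at 83.4 to 95.2 in the 6 libraries and at 75.7 in both CM +Dox libraries, a difference of -14.4 with no overlap (exact permutation p = 0.0357, adjusted 0.09345). Site 4 (chr1:69513488-69514079) stood at 86.7 to 94.2, and at 48.1 and 87.5 in CM +Dox, which overlaps. The neighbours in this row thus differed in how far they stood apart in CM +Dox, and site 3 between them had the widest gap.

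**Figure D2:**
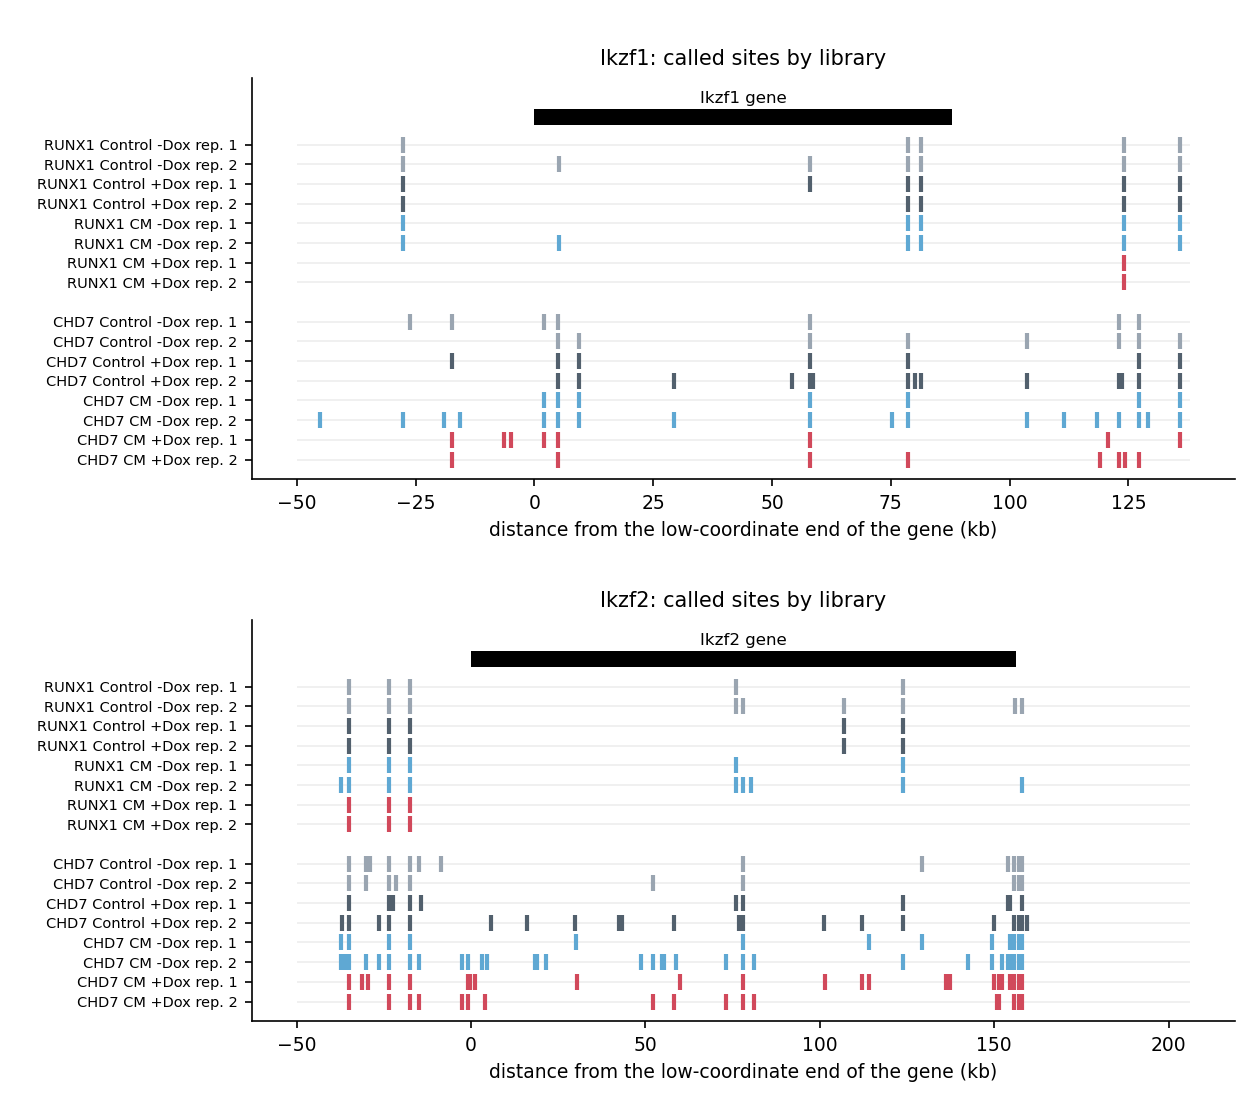
Called sites at Ikzf1 (top) and Ikzf2 (bottom), as ticks at the site's middle in kb from the low-coordinate end of the gene (black bar), 1 line per library, RUNX1 above CHD7, red for CM +Dox. Both CM +Dox RUNX1 lines at Ikzf1 carry a single tick, and those at Ikzf2 carry the 3 ticks below the gene.

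Of the 8 RUNX1 sites at the family called in all 8 libraries, 2 ranked lower in both CM +Dox libraries than in all others, and 2 ranked higher. Over all 4833 such sites these shares were 22.0% and 24.0%, and the median difference was 0.54. No site passed an adjusted 0.05 in the exact test, and 1847 had an unadjusted p under 0.05.

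The sites that ranked higher were at starts of genes. Ikzf5 site 2 (chr7:131410453-131410811) covers the starts of Ikzf5 and of Acadsb, an acyl-CoA dehydrogenase gene. It stood at 11.7 and 29.9 (Control -Dox), 12.0 and 6.25 (Control +Dox), 21.8 and 28.8 (CM -Dox), and 67.3 and 47.6 (CM +Dox), so both CM +Dox values lay above the 6 others. The difference was 39.0 (57.4 against 18.4 ± 9.85; exact permutation p = 0.0357, adjusted 0.09345). Ikzf4 site 3 (chr10:128696145-128696720), at the start of Rab5b, an endosomal GTPase gene, stood at 42.7 to 65.8, and at 78.5 and 72.4 in CM +Dox, a difference of 21.8 with the same p-values.

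The other 4 kept sites overlapped between the groups. Ikzf1 site 6 at Fignl1 stood at 10.2 to 32.2 and, in CM +Dox, at 1.76 and 13.7. Ikzf3 site 1 (chr11:98438715-98439151), at the start of Mien1, stood at 18.0 to 51.8 and at 62.1 and 51.7. Ikzf4 site 4 (chr10:128704949-128705399), at the start of Cdk2, a cell cycle kinase gene, stood at 11.5 to 34.2 and at 35.8 and 29.2. A comparison chosen after seeing the data set CM +Dox against the 3 other libraries of its own replicate number. Within both numbers CM +Dox was lower at Ikzf1 site 6 and Ikzf2 site 4 and higher at Ikzf3 site 1 and Ikzf4 site 4, as well as at the 4 sites above. Over all sites called in 8 libraries, 26.8% were lower and 30.6% higher within both numbers. Ikzf2 sites 2 and 3, Ikzf4 site 3 and Ikzf5 site 2 kept their sides without overlap when the library with the mismatched tag was left out.

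**Figure D3:**
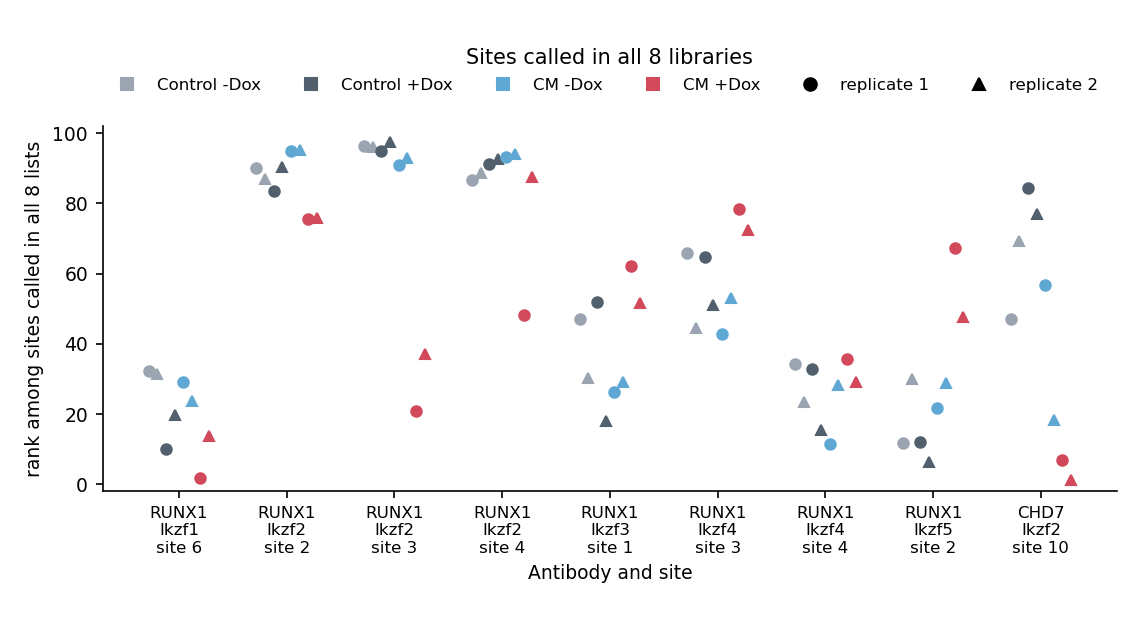
Rank (0 to 100) among the sites that all 8 lists of an antibody call, for the 8 such RUNX1 sites at the Ikaros genes and for CHD7 at the place of Ikzf2 site 3; each point is 1 library, coloured by condition, circles for replicate 1 and triangles for replicate 2. In CM +Dox (red) Ikzf2 site 3 sits at 21.0 and 37.0 for RUNX1 and at 6.82 and 1.38 for CHD7, and Ikzf5 site 2 sits above its other 6 points.

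Ikzf3, which encodes Aiolos, had no RUNX1 site inside its body (chr11:98464610-98546031) in any library. Its window held 2 and 1, 2 and 1, 2 and 1, and 3 and 2 sites in the order of conditions above, which overlap (exact permutation p = 0.25, adjusted 0.619). The mean difference was 1.0, and 1.1 without the library whose tag and label disagree. Within each replicate number CM +Dox had the most sites, as at 0.834% of genes with a RUNX1 site, and with a replicate block the exact permutation p was 0.0625, the smallest possible (adjusted 0.317). These lay at the start of Mien1, at the start of Zpbp2 and close to Ormdl3, the last (site 3) in CM +Dox replicate 1 alone. Ikzf3 site 2, at Zpbp2 (chr11:98550932-98551757) was called in 3 of the 6 libraries without induced CM and in both CM +Dox libraries.

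Ikzf4, which encodes Eos, had 3 or 4 RUNX1 sites in every library, and 3 in both CM +Dox libraries (exact permutation p = 0.107, adjusted 0.4008). The difference was -0.83, and -0.8 without the library whose tag and label disagree. The 1 site inside the gene (chr10:128630839-128669671), site 2 (chr10:128663549-128664111), was lost, with ranks of 10.5 to 34.0 in the other 6. The others were at starts of neighbours: Rps26, a ribosomal protein gene, Rab5b and Cdk2. Ikzf5, which encodes Pegasus (chr7:131388649-131410518), had 2 sites in Control -Dox replicate 1 and 1 in every other library (exact permutation p = 1, adjusted 1). The first is the library whose tag and label disagree, and without it the groups did not differ at Ikzf5.

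**Figure D4:**
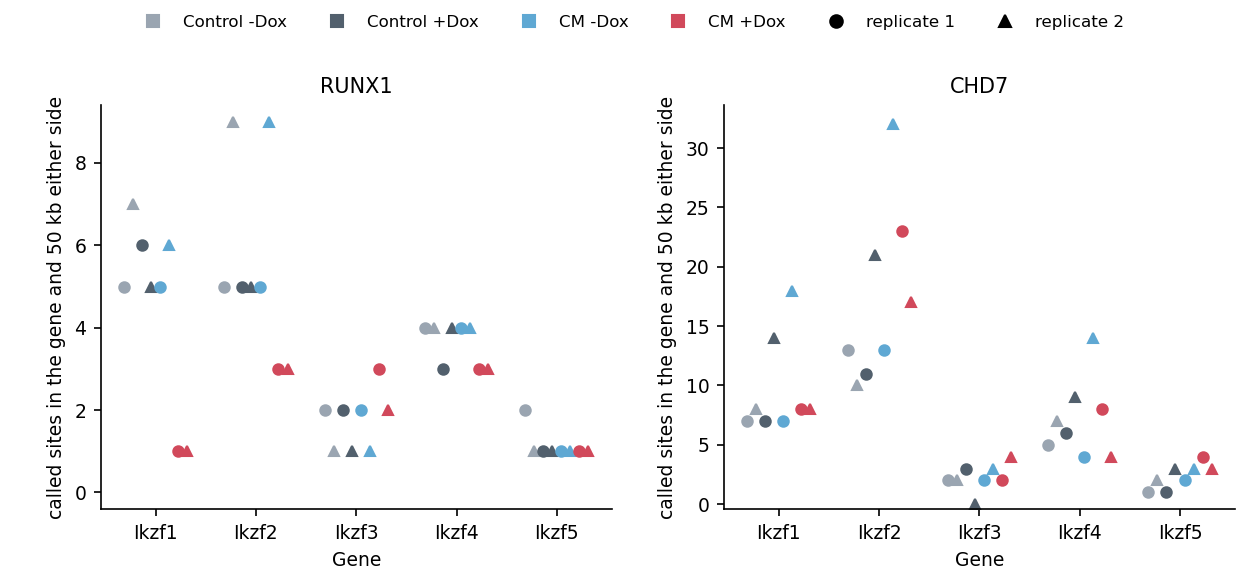
Called sites in the gene and 50 kb either side (vertical axis) at each Ikaros gene for RUNX1 (left) and CHD7 (right); each point is 1 library, coloured by condition, circles for replicate 1 and triangles for replicate 2. The red CM +Dox points lie below all others for RUNX1 at Ikzf1 and Ikzf2, and overlap the others for CHD7.

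Over the family, RUNX1 sites per library numbered 18 and 22, 17 and 16, 17 and 21, and 11 and 10 in CM +Dox, a mean of 10.5 ± 0.71 (n = 2) against 18.5 ± 2.43 (n = 6). Of the 14 RUNX1 sites called in all 6 libraries without induced CM, 6 were lost, against 27.9% of all 8531 such sites, and none was gained, against 2.65% of the sites called in both CM +Dox libraries. A gained site is one called in both CM +Dox libraries and in none of the others; without CM +Dox replicate 2 the family had 1. More sites in both CM +Dox libraries than in all others, found at 0.639% of genes, occurred at no member. Without the library whose tag and label disagree the difference was -8.1, with 6 sites lost. With every list reduced to its 8140 highest peaks the family difference went from -8.0 to -1.33 sites, and 3 sites were lost, all of them at Ikzf1, of 7 called in all 6 libraries, against 23.9% of all sites.

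At Ikzf1 the same reduction left 3 of 3 sites lost and a difference of -2.67, with no overlap between the groups. A common score of at least 9 left the counts of lost sites at Ikzf1 and over the family at 4 and 6.

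The lost sites of the family lay away from the gene starts that the promoter table lists. None of the 5 sites overlapping a RefSeq promoter window (250 bases before to 50 after a start) was lost, and 6 of the 9 elsewhere were. Across the genome 11.7% of such sites at promoter windows and 33.6% of those elsewhere were lost. The 3 sites elsewhere that were kept are the row below Ikzf2. Starts that the promoter table does not list count as elsewhere. That table lists no start of Ikzf2, Ikzf3 or Ikzf4, so sites at their own starts would count as elsewhere. Lost Ikzf2 site 9 and lost Ikzf4 site 2 lie inside such genes.

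CHD7 was called more widely and more unevenly. At Ikzf1 the counts were 7 and 8 (Control -Dox), 7 and 14 (Control +Dox), 7 and 18 (CM -Dox), and 8 and 8 (CM +Dox). At Ikzf2 they were 13 and 10, 11 and 21, 13 and 32, and 23 and 17. CM +Dox lay within the range of the other libraries at both genes. At Ikzf3 the counts ran from 0 to 4, at Ikzf4 from 4 to 14 and at Ikzf5 from 1 to 4, with the groups overlapping at each. Fewer CHD7 sites in both CM +Dox libraries were found at 0.341% of genes, and more at 4.49%. No gene passed an adjusted 0.05 in the exact test, and 729 of 17895 had an unadjusted p under 0.05.

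Library totals over the family were 28 and 29, 28 and 47, 28 and 70, and 45 and 36, which follow the lengths of the lists: the 4 longest lists, of 31688 to 37698 peaks, hold the 4 highest. Of the 130 CHD7 sites, 73 (56.2%) were called in 1 library, against 59.5% of all CHD7 sites, and 62 of the 73 were in those 4 lists. The last count was not made over all CHD7 sites, so it cannot be read as a trait of the family.

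Of the 10 CHD7 sites called in every library, 9 overlapped a RUNX1 site of some library, and of the 73 called in 1 library 6 did; over the genome these shares were 77.0% and 5.30%. They were 5 at Ikzf2, 2 at Ikzf1, 2 at Ikzf4 and 1 at Ikzf5. At Ikzf1, CHD7 site 10 (chr11:11687533-11692272), merged from peaks over 4740 bp, covers the second start shown above, and in 5 libraries a CHD7 peak overlapped the RUNX1 site there. CHD7 site 14 (chr11:11742342-11743457) covers RUNX1 site 3 inside the gene. At Ikzf5, CHD7 site 1 (chr7:131362526-131363077), at the start of 2310057M21Rik, had list ranks of 95.7 to 98.7, the highest mean of the family. At Ikzf4 the highest was CHD7 site 6 (chr10:128626361-128627343) at Rps26, with ranks of 91.0 to 95.9. At Ikzf3 no CHD7 site was called in every library, and the highest was site 1 at Mien1, called in 5.

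At Ikzf2, CHD7 was called in all 8 libraries over each of the 3 RUNX1 sites below the gene. CHD7 site 10 (chr1:69507042-69508299), over RUNX1 site 3, stood among the 4852 CHD7 sites called in all 8 lists at 46.9 and 69.3 (Control -Dox), 84.4 and 76.9 (Control +Dox), 56.9 and 18.3 (CM -Dox), and 6.82 and 1.38 (CM +Dox). Both CM +Dox values lay below the 6 others, as for RUNX1 at this place. The difference was -54.7 (4.1 against 58.8 ± 24.0; exact permutation p = 0.0357, adjusted 0.4646). The CHD7 sites over the neighbours, site 4 (difference -18.5) and site 13 (difference 22.1), overlapped between the groups. Of the 10 sites 1 ranked lower in both CM +Dox libraries and none higher, against 6.37% and 6.22% of all such sites. No CHD7 site passed an adjusted 0.05, and 373 had an unadjusted p under 0.05.

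No CHD7 site of the family was lost, against 3.65% of the sites called in all 6 libraries. One, Ikzf2 site 58 (chr1:69682359-69682846) inside the gene, was gained, against 8.26% of the sites called in both CM +Dox libraries, at list ranks of 49.7 and 77.5. These counts rest on single libraries: the lost count was 1 without Control -Dox replicate 1 or without CM +Dox replicate 2, and the gained count was 2 without CM -Dox replicate 2, 8 without CM +Dox replicate 1 and 17 without CM +Dox replicate 2.

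Each of the 14 RUNX1 sites called in all 6 libraries without induced CM was overlapped by CHD7 in at least 1 library, as were 85.0% of all 8531 such sites. Of the 6 lost sites, CHD7 was called at 0 and 2 (Control -Dox), 3 and 4 (Control +Dox), 2 and 5 (CM -Dox), and 1 and 1 (CM +Dox). For the 8 kept sites the numbers were 3 and 6, 6 and 6, 3 and 7, and 5 and 6. The CM +Dox values lay within the range of the others in both sets. Over all 14 sites CHD7 was called at 6.5 in CM +Dox and 7.83 ± 3.31 (n = 6) in the others, a difference smaller than the spread. CHD7 was still called at lost RUNX1 site 4 of Ikzf1 in CM +Dox replicate 2 and at lost site 7 in CM +Dox replicate 1.

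**Figure D5:**
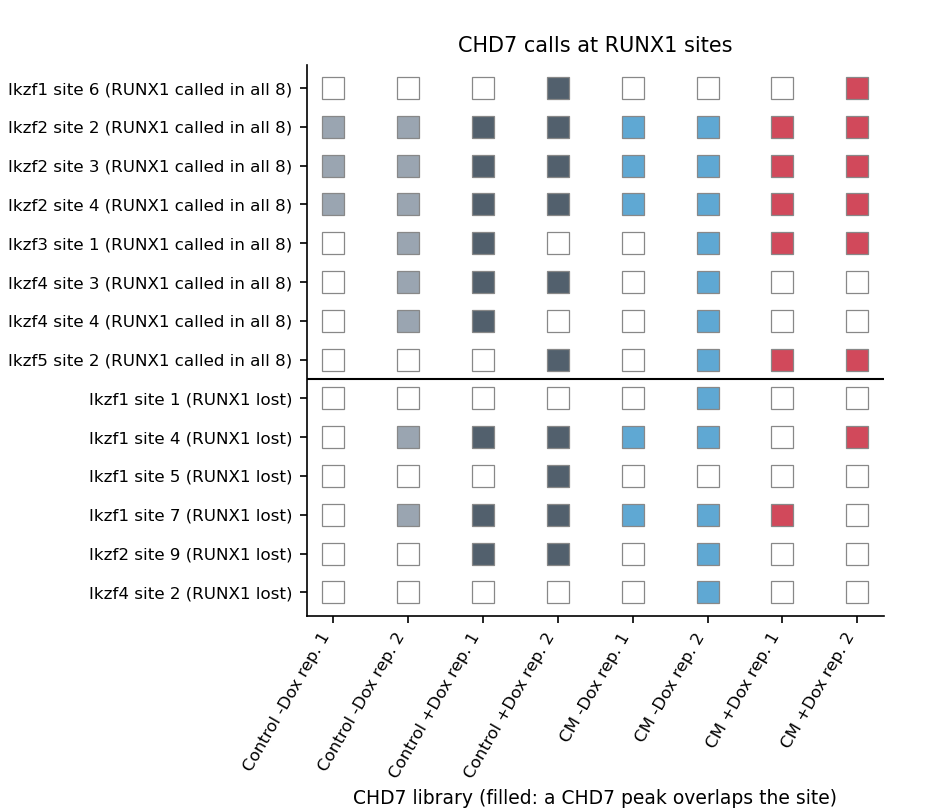
CHD7 calls (filled squares) in the 8 CHD7 libraries (columns) at 14 RUNX1 sites (rows), those that every library without induced CM called, with the 8 that stayed called above the line and the 6 lost below it. The 3 Ikzf2 rows of kept sites are filled throughout, and each CM +Dox column is filled at 1 of the 6 lost sites.

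The genes whose summed RUNX1 rank over the 8 RUNX1 libraries correlated best with that of a member were picked from genes with at least as many sites. For Ikzf1, out of 1482 genes, these were Rrp8 and Ilk (Pearson r = 0.996 each, with the same counts) and Spns3 (r = 0.995). Rrp8 and Ilk both lie on chromosome 7, and whether their windows hold the same sites was not tested. Ilk encodes an integrin-linked kinase and Spns3 a transporter-like protein. Their site counts were 5 to 7 for Rrp8 and Ilk and 8 or 9 for Spns3 without induced CM, and 1 in each CM +Dox library. For Ikzf2 they were Rnf150 (r = 0.990), Pde4b (r = 0.988) and Rreb1 (r = 0.987). For Ikzf3 they were Zfp579 (r = 0.985), Rexo1 (r = 0.982) and Crkl (r = 0.982). For Ikzf4 they were Med24 (r = 0.970), Mapk8ip3 (r = 0.948) and Thra (r = 0.939). For Ikzf5 they were Acbd7 (r = 0.960), Ptpn9 (r = 0.958) and Atp1b3 (r = 0.939). The 8 points of each correlation are the same libraries, whose lists differ in length, so r describes likeness only.

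Genes that work with Ikaros proteins were followed in the same way. Of 13 NuRD genes, 11 had a RUNX1 site called in both CM -Dox libraries and 11 in both CM +Dox libraries. For 7 other corepressor genes the numbers were 5 and 4, and for 5 genes of the cereblon ubiquitin ligase 4 and 4. In human cells this ligase degrades Ikaros and Aiolos in the presence of lenalidomide. For all genes the shares were 57.4% and 45.9%. Fewer RUNX1 sites in both CM +Dox libraries than in all others were found at 3 of 13 NuRD genes and 1 of the 7. None of the 4 cereblon ligase genes with a RUNX1 site had fewer. Over all genes with a RUNX1 site the share was 19.6%. More were found at 2 NuRD genes, against 0.639%. The NuRD genes with fewer were Chd4, the NuRD remodeller (5 to 7 sites, and 3 and 4 in CM +Dox), Mta1 (3, and 2 and 2) and Gatad2b (3 or 4, and 1 and 1). Chd3 and Mbd3 had more, with 4 to 7 and 2 or 3 sites against 8 and 8, and 4 and 4. The other corepressor gene was Rcor1 (3 or 4, and 1 and 1). None of these passed an adjusted 0.05.

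Of 25 lymphoid genes, among which are known targets of Ikaros, 19 had a RUNX1 site in both CM -Dox libraries and 14 in both CM +Dox libraries. Of the 21 with any RUNX1 site, 5 had fewer in both CM +Dox libraries, a share near the 19.6% of all genes. They were Igll1 and Vpreb1, surrogate light chain genes, Foxo1, Tcf7 and Cdk6. Igll1 and Vpreb1 had the same counts in every library of both antibodies, and whether their windows hold the same sites was not tested. Against 0.639% of all genes, 1 of the 21 had more: Blnk, a B cell adaptor gene. It had 2 sites in each Control library, 3 and 4 in CM -Dox, and 5 and 6 in CM +Dox. Blnk lies on chromosome 19, which held 4.57% to 5.22% of the RUNX1 peaks of the CM libraries, induced or not, and 2.83% to 3.18% of those of the Control libraries; its part in the Blnk counts was not tested. On the members' own chromosomes, 1, 7, 10 and 11, the RUNX1 shares of CM and Control libraries overlapped. For CM +Dox alone, chromosome 7 held 7% and 6.85% of RUNX1 peaks, against 6.34% to 6.5% in the libraries without induced CM. Chromosome 11 held 8.24% and 8.03%, against 7.61% to 7.84%. On chromosomes 1 and 10 CM +Dox overlapped the other libraries. The part of these shares in the members' counts was not tested.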

How the data were processed

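Peaks of the 16 ChIP-seq libraries were called library by library, as each has its own list; the labels also name an IgG sample, not analysed here. Bowtie2 2.0.6, MACS2 2.0.10 and the mm10 build were used, per the submitters' processing notes. The authors deposited for each peak a score, the −log10 of the p-value; per the peak names, lists end at 9 (5 RUNX1 lists), 7 (3) or 2 (CHD7). Read depth and control library: not given in the sources used here. Scores only rank peaks within a list. Peaks were merged at 1 bp overlap (Python 3.11.15, pandas 2.3.3), and gene windows came from the RefSeq table of GRCm38.p6 with 21887 protein-coding genes. The 2 CM +Dox libraries were set against the other 6 in an exact permutation test (two-sided, 28 choices), with Benjamini-Hochberg adjustment over all genes or sites. The procedure was tested on simulated data. The members, gene lists and rules were chosen with earlier results of these data known. Sites named are those called in all 8 libraries, lost, gained or highest in rank per gene and antibody; others are named where counts are 5 or fewer. Alternatives were other thresholds, list lengths, windows, overlaps, omitted libraries and a replicate block.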

Additional observations from a re-analysis of the deposited data

Results flagged for a closer look

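At 3 sites of Ikzf2, both Control +Dox libraries lay on one side of both Control -Dox libraries. Both CM +Dox libraries lay on the opposite side of both CM -Dox libraries. This difference was not tested. The 3 were picked by this pattern from the 8 RUNX1 and 10 CHD7 sites of the family called in all 8 libraries. Its share over all such sites was not counted, so it cannot be read as a trait of Ikzf2. For RUNX1 at Ikzf2 site 4, the rank among sites called in all 8 libraries was 86.7 and 88.6 in Control -Dox and 91.1 and 92.6 in Control +Dox, but 93.1 and 94.2 in CM -Dox and 48.1 and 87.5 in CM +Dox (CM +Dox minus the others, -23.2). For CHD7 at Ikzf2 site 10 it was higher with doxycycline in Control cells, at 84.4 and 76.9 against 46.9 and 69.3, and lower in CM cells, at 6.82 and 1.38 against 56.9 and 18.3 (-54.7). For CHD7 at Ikzf2 site 64 (chr1:69688789-69689713), 1.44 kb above the gene, it went the other way, from 78.0 and 69.3 to 57.2 and 64.2 in Control cells and from 26.5 and 51.7 to 58.8 and 56.4 in CM cells (-0.20).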

How the results depend on the processing

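RUNX1 at Ikzf1 and the ranks of Ikzf2 sites 2 and 3, Ikzf4 site 3, Ikzf5 site 2 and CHD7 site 10 of Ikzf2 kept their direction without overlap between groups under every alternative that gave a value, which for CHD7 site 10 of Ikzf2 were only the replicate block and leaving out 1 library; Ikzf1 differed by -5.17 to -2.67 sites, with adjusted p from 0.168 to 0.688. Site 3 of Ikzf2 and site 2 of Ikzf5 have no rank where a stricter list no longer calls them in every library. The rank difference was -33.2 at Ikzf2 site 2 at the median score and 35.0 at Ikzf4 site 3 with equal lists. RUNX1 at Ikzf2 differed by -1.5 sites with equal lists, and overlapped with peaks at or above the median score (-1.83). The family's RUNX1 difference of -8.0 was -1.33 with lists of equal length and -4.33 at or above the median score of the antibody (29.1), and 3 sites were lost under each; 1 RUNX1 site was gained with equal lists. Equal lists and the median score gave 1 lost CHD7 site each, and gained CHD7 sites numbered 0 at a score of 9 and 2 at the median score (3.81). Lost RUNX1 sites at Ikzf1 numbered 2 with the gene body alone or with 10 kb. Equal lists put the RUNX1 difference at Ikzf4 at 1.33 and at Ikzf5 at 0.333, and the median score put Ikzf5 at 0.667. The CHD7 differences changed sign to 0.333 at Ikzf1, -0.167 at Ikzf2 and Ikzf3 and 0.167 at Ikzf4 at a score of 9, to -0.167 at Ikzf2 with equal lists, and to 0.333 at Ikzf4 at the median score; leaving out 1 CHD7 library at a time gave -3.5 to 0.5 at Ikzf4, the last without CM +Dox replicate 2. The cause of these changes was not tested. Stricter lists can hold no more peaks, and smaller windows no more sites. Leaving out 1 library at a time gave 0 to 1 gained RUNX1 sites, 0 to 1 lost CHD7 sites and 1 to 17 gained CHD7 sites. The CHD7 family difference of 2.17 ran from -2.33 (without CM +Dox replicate 1) to 9.0 (without CM -Dox replicate 2). Without a CM +Dox library the smallest exact p is 0.143. The planned overlap rule (a minimum share of the shorter of peak and site) always holds inside merged sites; it was run for CHD7 at RUNX1 sites (-1.17 against -1.33), and an alternative chosen after seeing the data, a peak covering at least 0.5 of the site, gave 3 lost sites at Ikzf1 and 4 over the family, against 4 and 6. Replicate numbers were shared between groups: with a replicate block the smallest p over 16 choices is 0.0625, which Ikzf1 reached for RUNX1 (adjusted 0.317), and its difference of -4.67 and that of the family, -8.0, stayed. Deviations of same-numbered libraries correlated at 0.309 to 0.591 for RUNX1 and -0.024 to 0.047 for CHD7, so the numbers are a hint of pairing for RUNX1 and none for CHD7.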

Other observations

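Chromosome 19, where no Ikaros gene lies, held 7.85% to 8.29% of the CHD7 peaks of the 4 CM libraries, with or without doxycycline, and 2.27% to 2.86% of those of the 4 Control libraries. Among the genes listed above, the 4 on it are Blnk, Dntt, Mta2 and Ddb1. CHD7 sites at Blnk numbered 1, 1, 0 and 2 in Control libraries, 7 and 11 in CM -Dox and 14 and 14 in CM +Dox. At Dntt, the terminal transferase gene, they numbered 1 or 2 in Control libraries, 7 and 6 in CM -Dox and 9 and 12 in CM +Dox. At Mta2 they numbered 5, 7, 4 and 6 in Control libraries, 16 and 18 in CM -Dox and 15 and 16 in CM +Dox. At Ddb1 they numbered 4, 4, 3 and 6 in Control libraries, 9 and 9 in CM -Dox and 9 and 9 in CM +Dox. At Mta2 and Ddb1, CM +Dox thus did not lie above CM -Dox. Chromosome 11, with Ikzf1 and Ikzf3, held 5.76% to 6.44% of the CHD7 peaks of the CM libraries and 6.22% to 7.20% of those of the Control libraries, which overlap.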
